A study of Mus musculus with 8 samples.

Results

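The genes described here encode the matrix metalloproteinases (MMPs), the ADAM and ADAMTS metalloproteinases and their tissue inhibitors (TIMPs) in the lung of untreated mice. Members were all array probes whose gene symbol in the deposited matrix begins with Mmp, Timp, Adam or Adamts followed by a digit, which gave 72 genes of 20920 named in that matrix, with 123 of the 41174 probes of the array. Of these probes 51 belonged to 30 ADAM genes, 41 to 18 ADAMTS genes, 27 to 21 MMP genes and 4 to 3 TIMP genes (Timp1, Timp3 and Timp4, while Timp2 was not analysed here). The rule for members used symbols alone and no measured value, but it was set with earlier results of these data known.

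Whole-lung RNA came from 4 wild-type mice and 4 mice of a transgenic line that carries the mouse Scgb3a2 coding sequence behind the human SP-C promoter. Secretoglobin 3A2 is a small protein secreted by airway epithelium, the SP-C promoter drives expression in alveolar type II cells, and the line descends from a single founder, so that an effect of the insertion site cannot be told apart from one of the protein. All 8 mice were C57BL/6 males of 8 to 10 weeks per the labels (approximately 8 weeks per the methods), and none was treated. Each two-color array compared the Cy5-labeled RNA of 1 mouse with a Cy3-labeled reference pool, the same on every array. The labels call this reference a pool of whole mouse lung, while the methods say that it held an equal amount of every sample's RNA. Dyes were not swapped, so for any probe a difference between mouse and pool contains both the content of the pool and any preference of the probe for a dye, and these cannot be told apart. A comparison of the genotypes does not have this problem, as the same pool and dye were used for both.

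MMPs are zinc enzymes that cut collagens, elastin and other matrix proteins, and they are held in check by TIMPs, which bind the active site. ADAMs are membrane proteins, some of which release growth factors and cytokines from the cell surface, whereas others serve in sperm or have no catalytic activity. ADAMTS enzymes are secreted and process procollagens, proteoglycans and von Willebrand factor. In lung, MMP12 of macrophages, MMP8 and MMP9 of neutrophils and TIMP1 of injured tissue are known from studies of emphysema and fibrosis.

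Many MMP genes lie side by side on chromosome 9, and several of them are known to carry a binding site for the transcription factor AP-1 close to the start site. Promoters of 42 of the 72 member genes were found in RefSeq (build GRCm38.p6), and the 250 bases upstream of each start were searched for TGAGTCA and its reverse complement TGACTCA, which together read the same site on both strands. One of these words was present in 8 of the 42 genes (19.0%), against 5.16% of the 27025 genes with a promoter in the same table. In the cluster on chromosome 9, 7 of 10 genes had it (Mmp1b among them, which had no member probe), and outside the cluster 2 of 34 member genes (5.88%). A match describes the letters of the window and shows no binding. The 200 bases before the start are given for the members furthest below the reference pool and for their neighbors Mmp13 and Mmp3, with the AP-1 word in capitals, all on the plus strand. They stand at chr9:7272314-7272513 (Mmp13), chr9:7347174-7347373 (Mmp12), chr9:7445622-7445821 (Mmp3), chr9:7558229-7558428 (Mmp8) and chrX:20869966-20870165 (Timp1).
Mmp13: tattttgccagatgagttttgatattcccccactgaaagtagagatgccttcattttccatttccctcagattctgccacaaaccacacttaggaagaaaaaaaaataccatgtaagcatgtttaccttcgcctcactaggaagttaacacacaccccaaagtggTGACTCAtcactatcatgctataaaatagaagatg
Mmp12: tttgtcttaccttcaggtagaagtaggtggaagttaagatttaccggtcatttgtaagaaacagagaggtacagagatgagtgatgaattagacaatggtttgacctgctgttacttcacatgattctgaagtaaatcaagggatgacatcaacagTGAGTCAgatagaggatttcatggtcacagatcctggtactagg
Mmp3: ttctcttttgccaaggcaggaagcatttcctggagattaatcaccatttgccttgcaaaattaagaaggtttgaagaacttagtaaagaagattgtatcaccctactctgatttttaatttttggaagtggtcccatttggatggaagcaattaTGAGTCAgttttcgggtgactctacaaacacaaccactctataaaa
Mmp8: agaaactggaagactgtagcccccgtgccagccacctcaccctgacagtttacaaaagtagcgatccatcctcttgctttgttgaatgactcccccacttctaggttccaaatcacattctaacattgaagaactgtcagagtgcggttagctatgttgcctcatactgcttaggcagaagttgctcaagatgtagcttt
Timp1: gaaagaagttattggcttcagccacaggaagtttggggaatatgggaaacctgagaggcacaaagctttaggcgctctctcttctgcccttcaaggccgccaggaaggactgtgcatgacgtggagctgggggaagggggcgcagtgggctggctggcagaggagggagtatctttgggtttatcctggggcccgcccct
The word began at position -35 in Mmp13, at -44 in Mmp12 and at -46 in Mmp3, counted back from the start site. A second start of Mmp12 in the table, and the windows of Mmp8 and Timp1, did not contain it.

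A probe was tested when Agilent's software called it well above background in the mouse channel on at least 4 of 8 arrays and at least 2 unflagged values were left in each genotype. This held for 32645 probes of the array and for 100 member probes of 62 genes, and 91 member probes were well above background on all 8 arrays. Of the 23 probes not tested, 13 were well above background on no array. Genes without any probe above background were Adam4, Adam7, Adam22, Adam39, Adamts6 and Mmp20, the last of which encodes enamelysin of the tooth. Adam6a, Adam12, Adamts19 and Mmp16 were above background on too few arrays. The call is a lenient one, since 4 of 4 markers of testis germ cells and 3 of 3 of neurons also passed it on all 8 arrays of whole lung. All 5 type II cell, 3 club cell, 2 ciliated cell and 5 endothelial markers measured passed as well. Not every marker of a lung cell type passed, as the fibroblast marker Dcn was well above background on 0 arrays and the mesothelial marker Wt1 on 1. In the mouse channel between 32257 and 34709 probes were well above background per array, and no spot outside the controls was saturated. Saturation in the pool channel was not examined.

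The transgene was examined first, as a check of the labels. Scgb3a2 had log2 ratios to the pool of 0.01, -0.39, 0.58 and -0.56 in wild-type mice 1 to 4, and of 1.26, 0.47, 0.70 and 0.74 in transgenic mice 1 to 4. Transgenic values were above those of wild-type mice with the exception of wild-type mouse 3, which was higher than transgenic mouse 2. The mean difference was 0.88 on the log2 scale with an SE of 0.24, or 1.84-fold, and it was positive on all 4 slides, each of which carried 1 mouse of each genotype. Limma gave an unadjusted p = 0.00329, and the exact two-sided permutation test gave p = 0.0571. After adjustment over all tested probes the transgene itself did not reach a p under 0.05.

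No member gene passed the threshold for a genotype difference. With the criterion of the study (a change of more than 1.5-fold with an unadjusted p under 0.05, here by limma's moderated test), 0 of 100 member probes were higher and 0 were lower in transgenic lungs, where 0.126% of all tested probes were higher and 0.104% lower. At an unadjusted p under 0.05 alone there were 2 members, against 2.09% of all probes, and after Benjamini-Hochberg adjustment 0 members and 0 probes of the whole array remained. By the methods' t-test 0 members passed the criterion in either direction, and 5 had an unadjusted p under 0.05. Of all 32645 tested probes, 864 had an unadjusted p under 0.05 by this same test. Log2 fold changes of members ranged from -0.50 to 0.35, with 52 positive and 48 negative, and their median of 0.01 compares with 0.00 over all tested probes. By subfamily the median was 0.01 for ADAM, 0.02 for ADAMTS, -0.10 for MMP and 0.07 for TIMP probes. In 4 members the 4 wild-type values did not overlap with the transgenic values, against 1.97% of all tested probes. These were Adamts15, Mmp23, a probe of Adam23 and a probe of Adamts1 with only 2 values in each genotype.

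**Figure D1:**
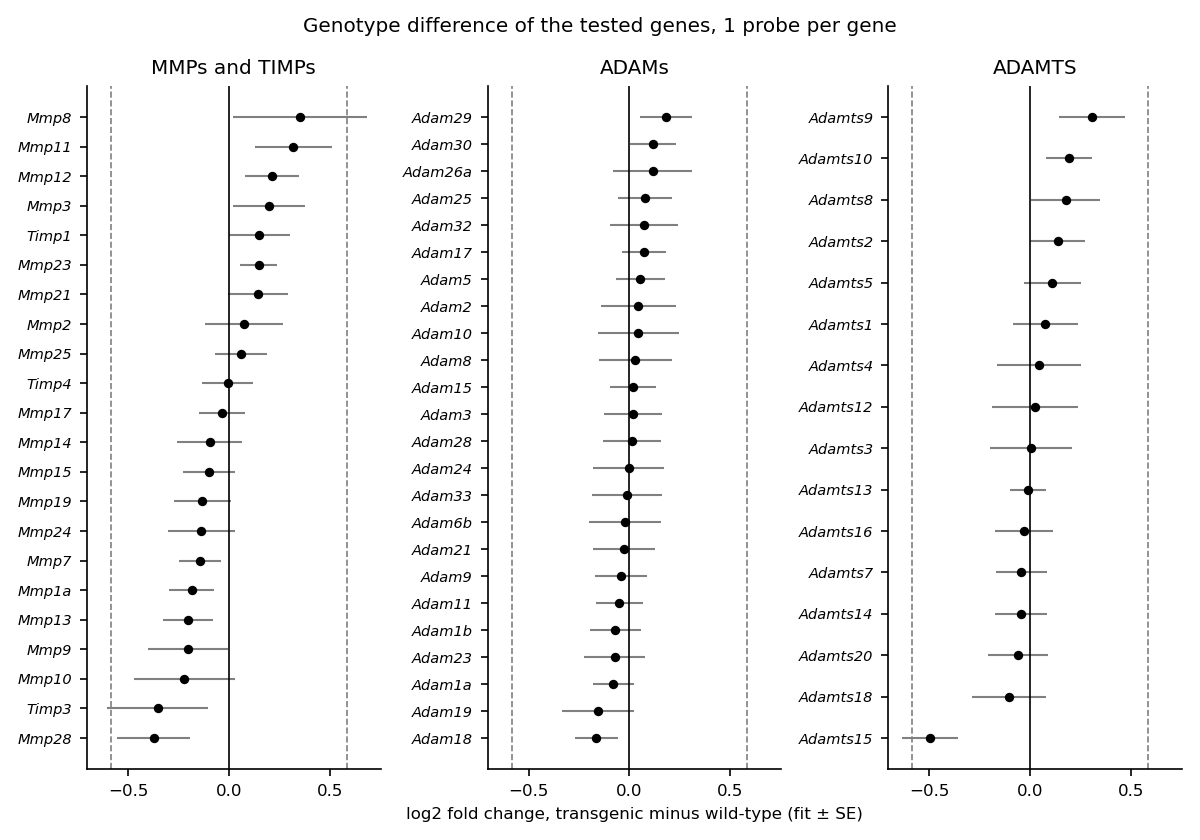
Log2 fold change of transgenic over wild-type lungs (x axis, fitted value with its SE) for the 62 tested member genes, given by their brightest probe and sorted within subfamilies. Dashed lines mark a 1.5-fold change, which no gene passed; Adamts15 at -0.50 lies furthest from 0.

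Adamts15, a secreted protease that cleaves versican and aggrecan, had the lowest p of all members. Its log2 ratios were 0.32, 0.03, 0.40 and -0.24 in wild-type mice 1 to 4 and -0.27, -0.39, -0.35 and -0.48 in transgenic mice 1 to 4. Every transgenic value was below every wild-type value, although wild-type mouse 4 came within a few hundredths of transgenic mouse 1. The mean was 0.13 ± 0.29 in wild-type and -0.37 ± 0.09 in transgenic lungs (SD, n = 4 each). The difference was -0.50 with an SE of 0.14, which is 0.708 times the wild-type level. Limma gave an unadjusted p = 0.00417 and an adjusted p = 1.00, and the exact two-sided permutation test gave p = 0.0286, the smallest that 4 against 4 allow. Within slides the difference was -0.87, -0.59, -0.42 and -0.11, lower in transgenic mice on 4 of 4 slides, which follows from groups that do not overlap. Without wild-type mouse 4 the difference was -0.62, past 1.5-fold.

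Mmp28, known as epilysin and made by epithelial cells, came next among the MMPs. Wild-type values were 0.75, 0.62, -0.15 and 0.40, and transgenic values 0.00, -0.21, 0.14 and 0.20. The groups overlapped because of wild-type mouse 3, and the difference was -0.37 with an SE of 0.18. Mmp11, stromelysin 3 of stromal cells, differed by 0.32 with an SE of 0.19, with wild-type values from -0.81 to 0.25 and transgenic values from -0.18 to -0.01. Mmp23 was separated between genotypes but by only 0.15, with wild-type values from -0.47 to -0.31 and transgenic values from -0.29 to -0.17. None of these 3 genes had an unadjusted p under 0.05 by limma with all mice. Mmp28 did without wild-type mouse 3 (difference -0.56, limma unadjusted p = 0.00179) and with median-centring (-0.41, limma unadjusted p = 0.0469), and Mmp11 did without wild-type mouse 4 (0.53, limma unadjusted p = 0.00178).

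Mmp2 and Mmp12, which the study followed by qRT-PCR in bleomycin-treated mice, were compared here in untreated mice. Mmp2, a gelatinase made by fibroblasts, had values of -0.27, -0.80, -0.95 and -1.14 in wild-type and -0.42, -0.59, -0.74 and -1.10 in transgenic mice. The groups covered nearly the same range, with a difference of 0.08 and an SE of 0.19, and its sign turned in some alternatives, to -0.02 with median-centring and -0.04 without wild-type mouse 4. Mmp12, the macrophage elastase, differed by 0.22 with an SE of 0.13 (wild-type -3.07 ± 0.27, transgenic -2.85 ± 0.08, SD, n = 4 each). Its limma unadjusted p was 0.137. Without wild-type mouse 4 the difference was 0.34 (limma unadjusted p = 0.0141), and with Agilent's processed signals it was 0.64, past 1.5-fold, at a limma unadjusted p = 0.0821.

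The inhibitors had no genotype difference larger than their spread. Timp3, which is bound to matrix and inhibits ADAM17 as well as MMPs, had values of 0.66, 0.71 and 0.01 in wild-type mice 1, 3 and 4, its spot being flagged in mouse 2. Transgenic mice 1 to 4 had -0.55, 0.18, 0.28 and 0.52. Both groups were widely spread and overlapped, with a difference of -0.35 and an SE of 0.25. The brightest probe of Timp1 differed by 0.15 (SE 0.15), with a sign that turned to -0.10 when the background model was fitted on all spots. Timp4 differed by -0.01 (SE 0.13), and its sign also depended on which mouse was left out.

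Beside Adamts15, 1 member probe had an unadjusted p under 0.05, the dimmer of the 2 Adam23 probes. Among the genes named for the lowest p of their subfamily, by their brightest probe, Adamts9, Adamts10, Adam18, Adam29 and Adam30 did not reach it. Adamts9, a proteoglycan-cleaving enzyme, differed by 0.31 (SE 0.17), and transgenic mouse 4 at 0.27 was apart from the other transgenic mice at -0.35 to -0.25. All 4 probes of Adamts9 had a positive difference, from 0.06 to 0.31. Adamts10, associated with fibrillin microfibrils, had wild-type values from 0.24 to 0.36 and transgenic values from 0.35 to 0.80, a difference of 0.19 (SE 0.11). Adam18, Adam29 and Adam30, known from testis, differed by -0.17, 0.18 and 0.12. Adam26a, the ADAM gene with the widest spread, ranged from -0.05 to 0.85 in wild-type and from 0.16 to 0.76 in transgenic mice. A probe of Adam23 had values of -0.58, -0.63, -0.73 and -0.62 in wild-type and -0.54, -0.41, -0.29 and -0.45 in transgenic mice. The groups did not overlap, with a difference of 0.22 (SE 0.10), for which the exact permutation test gave p = 0.0286 and limma an unadjusted p = 0.0460 and an adjusted p = 1.00. The brighter Adam23 probe did not repeat this, with a difference of -0.07 (SE 0.15) and overlapping groups.

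Some cell type markers passed the same unadjusted criterion, which 0.126% of all tested probes passed upward and 0.104% downward, and all of them had an adjusted p = 1.00 by limma. Adipocyte markers had a median difference of -0.81, with 2 of 4 lower (Adipoq and Fabp4), and type II cell markers one of -0.57, with 1 of 5 lower (Sftpa1). The mean log2 ratio over adipocyte markers was 0.36 to 1.05 in wild-type and -0.94 to 0.54 in transgenic mice, and over type II cell markers 0.39 to 1.62 and -0.22 to 0.67. In addition Kdr of endothelium was higher by 0.63 (1 of 5 markers), and 1 of 5 striated muscle markers was lower. In the other 11 marker lists 0 genes passed. Among these, fibroblast markers had a mean log2 ratio of -0.52 to -0.46 in wild-type and -0.44 to -0.16 in transgenic mice. The groups did not overlap, so that transgenic mice were necessarily higher on 4 of 4 slides. Of 7 tested fibroblast markers 2 had an unadjusted p under 0.05 by limma (Col1a1 and Col3a1, each with a difference of 0.36), against 2.09% of all tested probes. The other tested markers of this list did not: Lum, Tcf21 and Mfap4 differed by 0.13, 0.18 and 0.27, and Col1a2 and Pdgfra by -0.13 and -0.03. Neuron markers were also higher in transgenic mice on 4 of 4 slides, with means that overlapped between genotypes. How often the means of other gene sets separate or keep their sign in this way was not examined. Values of adipocyte and type II cell markers overlapped between genotypes. Their part in the values of the members was not tested, and in whole tissue fewer cells of a type cannot be told apart from less RNA per cell.

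Compared with the pool, more member probes were below it than above it. A probe was counted as above or below the pool when the mean log2 ratio of the 8 mice differed from 0 by more than 1.5-fold with an adjusted p under 0.05 by limma. Above the pool were 6 of 100 member probes, of 6 genes, a share near the 5.87% of all tested probes. Below it were 15 of 100 member probes, of 13 genes, against 4.72% of all tested probes. The median log2 ratio over member probes was -0.02, against 0.01 over all tested probes.

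**Figure D2:**
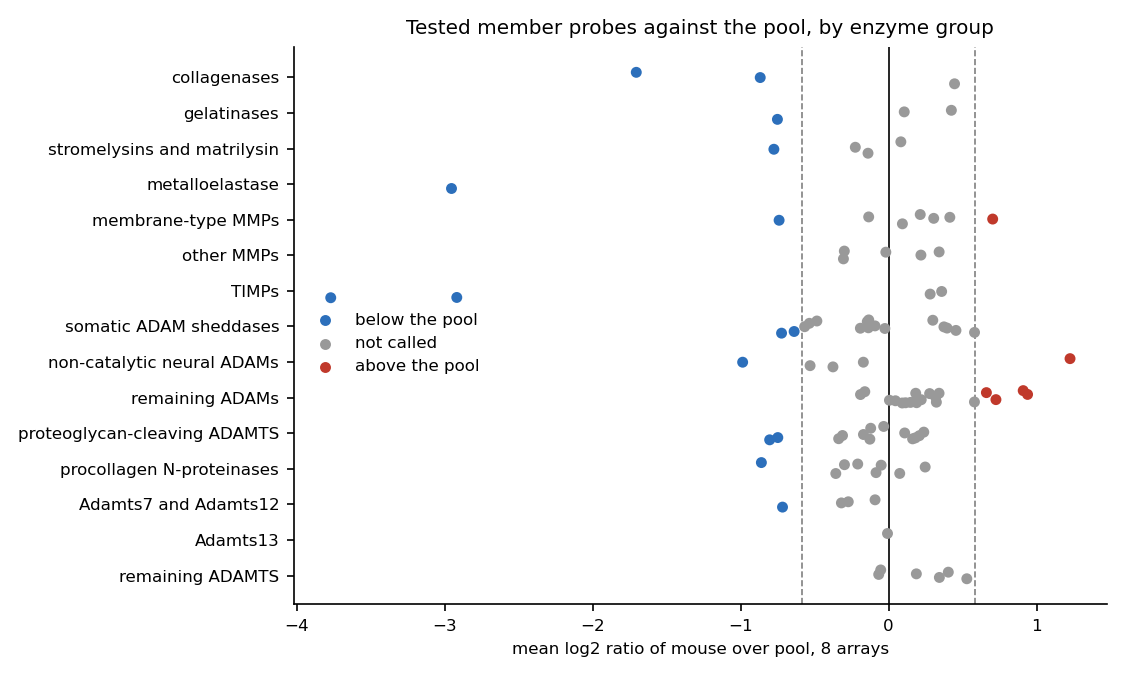
Mean log2 ratio of the 8 mice over the pool (x axis) for each of the 100 tested member probes, by enzyme group (rows). Dashed lines mark 1.5-fold; the Timp1, Mmp12 and Mmp8 probes lie from -3.77 to -1.71, while the probes above the pool reach 1.23.

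Timp1 and Mmp12 were further below the pool than nearly any other gene. The brightest Timp1 probe had log2 ratios of -2.87, -3.15, -3.11 and -2.85 in wild-type mice and -2.45, -2.80, -2.94 and -3.18 in transgenic mice. All 8 values were far below 0 and the genotypes overlapped, with a mean of -2.92 (SE 0.08), or 7.56-fold below the pool, at an adjusted p of 3.99e-09 by limma. A second Timp1 probe was at -4.28 to -3.08 with a mean of -3.77 (SE 0.11), the lowest of all 32645 tested probes. Mmp12 had values of -3.31, -3.23, -3.02 and -2.70 in wild-type and -2.87, -2.78, -2.80 and -2.95 in transgenic mice. Its mean was -2.96 (SE 0.07), 7.78-fold below the pool at an adjusted p of 1.81e-09 by limma, and 4 tested probes of the array were lower. In the mouse channel 3 wild-type and 4 transgenic arrays had this probe well above background, and in the pool channel all 8. For this dim probe the size depended on the background correction, from -2.004 with the background model fitted on all spots to -4.42 with Agilent's processed signals, while the direction did not.

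**Figure D3:**
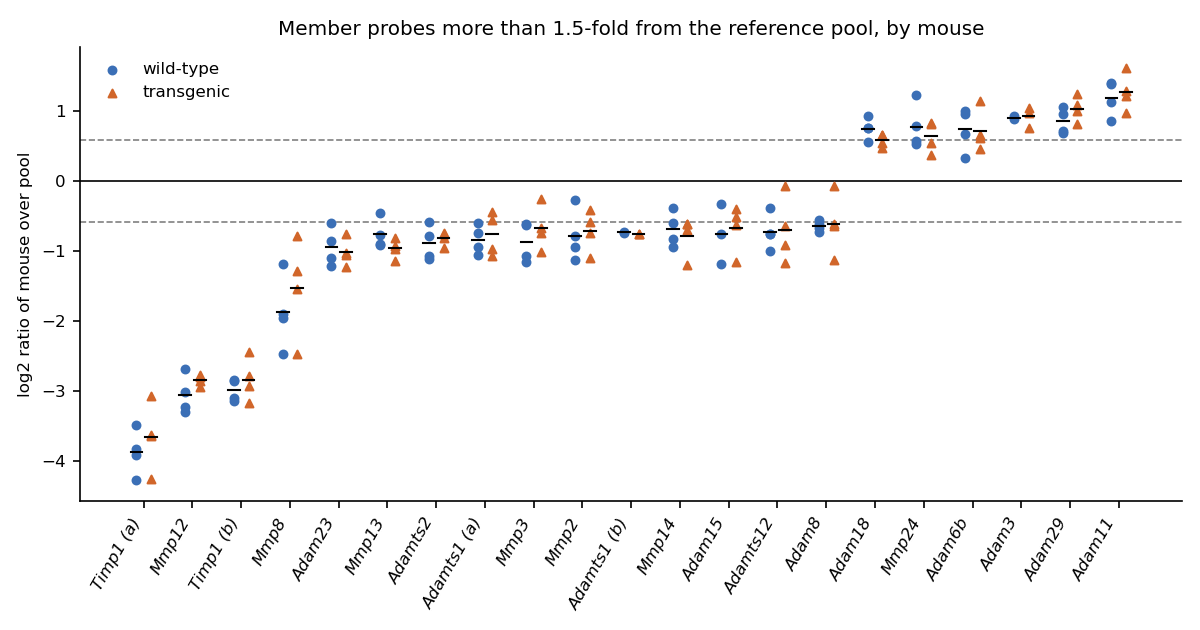
Log2 ratio of each mouse over the pool (y axis) for the 21 member probes called below or above the pool, with wild-type mice as circles, transgenic mice as triangles and the mean of each genotype as a bar. Dashed lines mark 1.5-fold, and letters tell apart probes of the same gene. Flagged spots are left out, so some probes lack a value for some mice. For all 21 probes, which were chosen by their call against the pool, every mouse with a value lies on the same side of 0.

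If the pool held equal parts of these 8 RNAs and the dyes were equal, the linear ratios of the 8 mice to the pool would average 1 for every probe before any processing. The ratios given here were taken after loess within arrays and without flagged spots. The reason for a departure from 1 was not tested. The mean linear ratio was 0.134 for the brightest Timp1 probe, 0.130 for Mmp12 and 0.331 for Mmp8, and it was 2.37 for the Adam11 probe at the other end. Of all tested probes 1.23% had a mean log2 ratio below -1 and 0.132% below -2.

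The collagenases, which cut fibrillar collagen, were divided. Mmp8, the collagenase of neutrophils, had values of -1.96, -1.90, -2.48 and -1.19 in wild-type and -0.79, -1.29, -1.56 and -2.47 in transgenic mice. The mice varied more in this gene than in any other member, with an SD within genotypes of 0.624 against a median of 0.222 over members and 0.179 over all tested probes. Its mean of -1.71 (SE 0.17) was 3.26-fold below the pool. Mmp13, collagenase 3, was at -0.46, -0.90, -0.92 and -0.78 in wild-type and -0.93, -1.14, -0.82 and -0.98 in transgenic mice, 1.82-fold below. Mmp1a, the rodent relative of interstitial collagenase, was above 0 in all mice at 0.21 to 0.70, with a mean of 0.45 (SE 0.06) that did not reach 1.5-fold.

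Among the other MMPs of the cluster on chromosome 9, Mmp3 was below the pool, while Mmp10 and Mmp7 were not called. Mmp3, stromelysin 1, was at -1.16 to -0.63 in wild-type and -1.02 to -0.26 in transgenic mice, with a mean of -0.78 (SE 0.09). Mmp10, stromelysin 2, ranged from -0.89 to 0.53 with a mean of -0.14 (SE 0.12), and Mmp7, matrilysin of epithelia and well above background on only 4 arrays, from -0.11 to 0.27 with a mean of 0.08 (SE 0.05). Thus 4 of the 7 tested genes of the cluster were below the pool (Mmp13, Mmp12, Mmp3 and Mmp8), and the AP-1 word stood in the windows of 3 of these and of all 3 others (Mmp1a, Mmp10 and Mmp7).

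**Figure D4:**
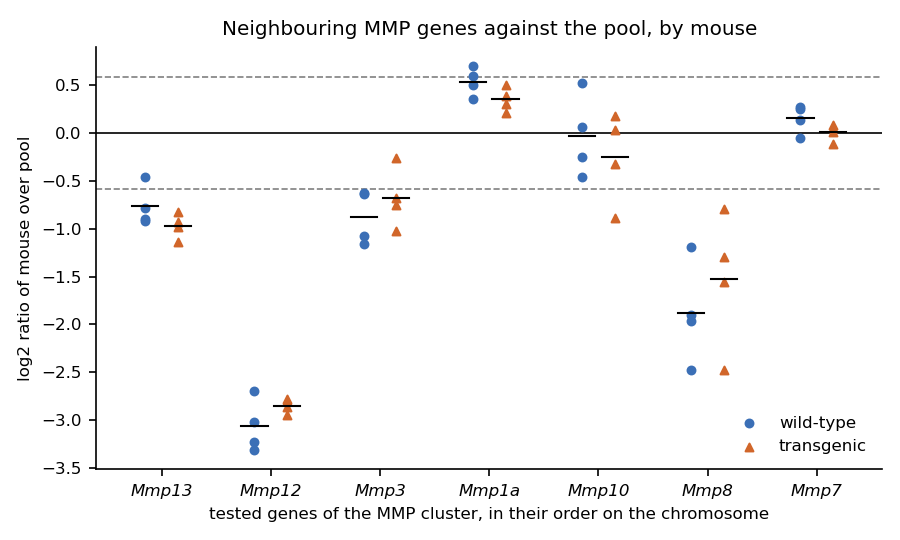
Log2 ratio of each mouse over the pool (y axis) for the 7 tested MMP genes of the cluster on chromosome 9, in their order along the chromosome (x axis), with wild-type mice as circles, transgenic mice as triangles and genotype means as bars. Mmp12 at a mean of -2.96 has neighbors at -0.87 (Mmp13) and -0.78 (Mmp3).

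Of the gelatinases, Mmp2 was 1.68-fold below the pool with all 8 values negative, and Mmp9 was not called. The brighter Mmp9 probe had a mean of 0.42 (SE 0.10) with a range from 0.12 to 1.00, and the probe that stands on the array in 10 copies had a mean of 0.11 (SE 0.05). Mmp14, the membrane-type enzyme that activates proMMP2, was at -0.95 to -0.39 in wild-type and -1.20 to -0.61 in transgenic mice, with a mean of -0.74 (SE 0.08). Mmp24, a membrane-type enzyme known from neurons, was on the other side at 0.36 to 1.22 with a mean of 0.70 (SE 0.08), while its second probe had a mean of 0.21. The inhibitors Timp3 and Timp4 had means of 0.28 (SE 0.13) and 0.36 (SE 0.06) and were not called, in contrast to Timp1.

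Sheddases of the ADAM group had mostly small ratios. Adam8, an enzyme of myeloid cells, was 1.56-fold below the pool, with 3 transgenic mice at -1.14 to -0.62 and transgenic mouse 1 at -0.08. Adam17, the TNF convertase, had a mean of -0.57 (SE 0.05), just short of 1.5-fold, and Adam10, the main sheddase of Notch, one of -0.54 (SE 0.10). A probe of Adam15 was below at -0.72 (SE 0.11), while the brighter Adam15 probe was at -0.14 (SE 0.06). Adam23, a non-catalytic ADAM of the nervous system, was below the pool at -0.99 (SE 0.07), with all mice between -1.24 and -0.61.

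Probes above the pool, a share near that of all tested probes, came from 5 ADAM genes, among them Adam3, Adam18 and Adam29 known from testis, and from Mmp24. Second probes of Adam18 and Adam29, above background on too few arrays to be tested, were at -0.03 and -0.02. Adam29 had values of 0.71, 0.68, 0.95 and 1.06 in wild-type and 1.08, 1.24, 0.99 and 0.81 in transgenic mice, with a mean of 0.94 (SE 0.06). Adam3 and Adam18, sperm surface proteins, had means of 0.91 (SE 0.07, over 5 mice with unflagged spots) and 0.66 (SE 0.05), and Adam6b one of 0.73 (SE 0.09). Adam3, Adam5, Adam9, Adam18 and Adam32 are neighbors on chromosome 8, and the brightest probes of Adam5, Adam32 and Adam9 were at 0.28, 0.15 and -0.14 and not called. A ratio to the pool does not state how much of a transcript the lung held. Of the 4 germ cell markers 0 were above and 0 below the pool, with a median log2 ratio of 0.02. A probe of Adam11 had the highest ratio of the family at 1.23 (SE 0.08), whereas its other probes were at -0.38 and -0.17.

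ADAMTS genes were below the pool or not called. Adamts1, an early-response protease that cleaves versican and aggrecan, was below with both probes, the brighter at -1.08 to -0.44 with a mean of -0.80 (SE 0.08). Adamts12 was at -1.01 to -0.39 in wild-type and -1.17 to -0.07 in transgenic mice, with a mean of -0.72 (SE 0.11), and its other probes were not called. For Adamts2, which removes the N-propeptide of procollagens, 1 of 4 probes was below at -0.86 (SE 0.06), and the others were at -0.36 to 0.07. Adamts18 had the highest mean of the subfamily at 0.53 (SE 0.09), and Adamts13, the von Willebrand factor protease made in liver, was at -0.01.

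Probes of the same gene often disagreed in sign, about the pool as well as about the genotype difference. Of 26 genes with several tested probes, 15 had the same sign of the ratio to the pool in all probes and 14 the same sign of the genotype difference. Probes of a gene covered a median of 0.42 in log2 ratio to the pool and up to 1.60 in Adam11. In the genotype difference they covered a median of 0.14 and at most 0.32, where the differences of all member probes lay between -0.50 and 0.35. The 10 spots of the Mmp9 probe had an SD of 0.09 to 0.19 within an array.

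Mmp8 followed the mean of the neutrophil markers across mice. The mean log2 ratio over 8 neutrophil markers was -0.96, -1.14, -1.16 and 0.32 in wild-type and 0.83, -0.78, -0.65 and -1.65 in transgenic mice. S100a9, S100a8 and Retnlg had the largest SDs within genotypes (1.87, 1.59 and 1.26) and so weigh most in this mean. Other markers differed from them. Cxcr2 had an SD of 0.22 around a mean of 0.85, and Ltf was at 0.66 in wild-type mouse 1 and -0.03 in wild-type mouse 4. Relations of Mmp8 with single markers were not tested. Wild-type mouse 4 and transgenic mouse 1 were high in both the marker mean and Mmp8, and transgenic mouse 4 and wild-type mouse 3 were low in both. Pearson's r over the 8 mice was 0.90 (exact permutation p = 0.00129, adjusted p = 0.0103 over 8 relations) and Spearman's rho was 0.93 (exact permutation p = 0.00223). The 8 relations were chosen with earlier results of these data known, and these p-values do not allow for that choice. The share of all tested probes with such an r was not computed. Without transgenic mouse 1 and wild-type mouse 4, the farthest from the median of the markers, r was 0.84. Slides with 2 mice and scan days with 4 were too few for a value within them. The pool channel of the Mmp8 probe had an SD of 0.165 across arrays, and the mouse channel one of 0.613. Mmp8 differed between genotypes by 0.35 (SE 0.33), with groups that overlapped over nearly their whole range. This became 0.67, past 1.5-fold with an unadjusted p = 0.0319 by limma, without transgenic mouse 4, which was the lowest mouse in the neutrophil marker mean.

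**Figure D5:**
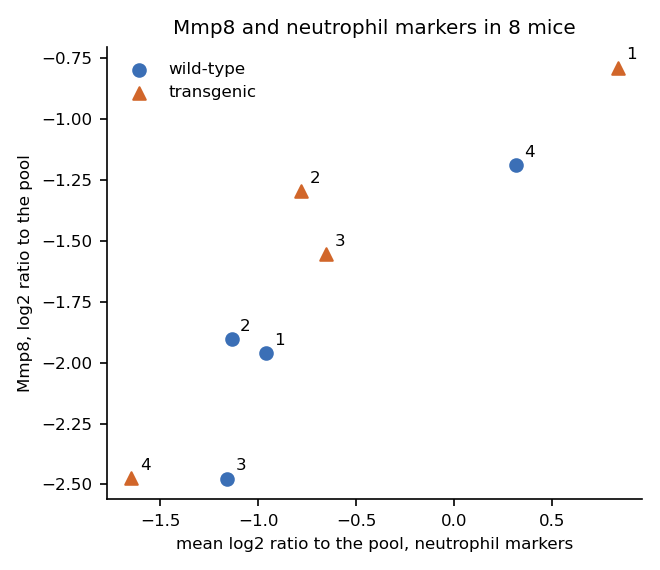
Mmp8 (y axis) against the mean of the neutrophil markers (x axis), both as log2 ratios to the pool, in 4 wild-type mice (circles) and 4 transgenic mice (triangles) with their replicate numbers. Mmp8 spans -2.48 to -0.79, and the 2 mice highest in the markers, transgenic mouse 1 and wild-type mouse 4, are also the highest in Mmp8.

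The other 7 relations examined had adjusted p-values of 0.201 to 0.827 by exact permutation tests. Mmp9, the other neutrophil protease, had by its brighter probe r = 0.20 (exact permutation p = 0.653) and rho = -0.07 (exact permutation p = 0.906) with the neutrophil markers over the 7 mice in which it was measured. The second Mmp9 probe was not examined for this, and the genotype differences of the 2 probes had opposite signs (-0.20 and 0.12). Mmp12 and alveolar macrophage markers had r = -0.32 (exact permutation p = 0.438) and rho = -0.21 (exact permutation p = 0.619). The lowest p of the 7 was that of Adamts4 and immediate early genes, at r = -0.70 (exact permutation p = 0.0503) and rho = -0.64 (exact permutation p = 0.0962). This r became -0.25 without transgenic mice 1 and 4, so that the relation rests on these mice. The relations of Mmp2 and Mmp14 with fibroblast markers, and of Adamts1 and Timp1 with immediate early genes, had r from -0.22 to 0.40. Without the 2 mice farthest in the markers, r changed sign for Mmp2 (0.40 to -0.24), Timp1 (-0.22 to 0.63), Mmp9 (0.20 to -0.69) and Mmp12 (-0.32 to 0.11).

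Genes that act on or with the family were taken from fixed lists. Of 24 tested activators, inhibitors and partners, 0 differed between genotypes, and 1 was above the pool (Plg, encoding plasminogen, at 0.73). Of 11 tested substrates 0 differed by the criterion. An unadjusted p under 0.05 by limma was held by 3, all at less than 1.5-fold, against 2.09% of all tested probes at any fold. These were Col1a1 and Col3a1, each with a difference of 0.36, and Tek with one of -0.44. Col1a1 and Col3a1 are also in the fibroblast marker list, with the same probes, so they are counted both there and here. Against the pool 5 substrates were below (Vcan at -1.78, Col1a1 at -1.23, Col3a1 at -1.14, Areg at -0.89 and Col4a1 at -0.78) and Notch1 was above at 0.60. Of all tested probes 4.72% were below the pool and 5.87% above it.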

How the data were processed

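Lung RNA of 4 wild-type and 4 transgenic mice was hybridized to 8 two-color Agilent arrays, and samples were grouped by the genotype in their labels. For each array the authors deposited Feature Extraction output with raw and processed spot intensities and log10 ratios of Cy5 over Cy3 (version 10.10.1.1 in the file headers, 11.0.1.1 in the labels' processing notes). A matrix from the authors holds log2 ratios as deposited, and it for 39811 of 39811 probes with a single spot was the ratio of the processed signals within 0.001 on each array, with column medians from -0.05 to 0.04 and no further centring. All 8 columns were mapped and 0 were left out.

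Here the median spot intensities were corrected with normexp (offset 50, fitted on unflagged spots), then loess was applied within each array without flagged spots, and the log2 ratios of spots of a probe were averaged. Of 41174 probes 33970 were well above background on at least 4 arrays, and 32645 of these, with at least 2 values per genotype, were tested with limma 3.58.1 in R 4.3.3, two-sided and adjusted by Benjamini-Hochberg over all tested probes. The study's criterion (1.5-fold, p under 0.05) was applied without adjustment. An intensity offset compresses the ratios of dim probes. The fit was tested on simulated data, and plots were made in matplotlib 3.10.9 (Python 3.11.15). Named genes are Scgb3a2, Mmp2, Mmp12, the TIMPs and, per subfamily, the genes with the smallest p, the most extreme ratios to the pool and the largest spread, each given by its brightest tested probe unless another probe is stated; other members were named after their values were seen. Members, gene lists and the 8 relations to marker lists were chosen with earlier results of these data known. Each replicate is a separate mouse. Promoter sequences and gene order are from RefSeq (GRCm38.p6). Coordinates of the array probes were not used here. With 4 arrays per genotype, the number of arrays limits the precision. A result of a listed partner gene is not reported here.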

Additional observations from a re-analysis of the deposited data

Results flagged for a closer look

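Among the 45 groups of named genes and genotype in which all 4 mice had a value, 3 had a mouse apart from the others by Dixon's criterion, and chance alone marks about 1 group in 20. Transgenic mouse 4 was high in Adamts9 (0.27, against -0.35 to -0.25 in the other transgenic mice). Transgenic mouse 1 was high in Adamts18 (0.78, against 0.34 to 0.40) and in Timp4 (0.72, against 0.21 to 0.25).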

How the results depend on the processing

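Genotype differences of members stayed at 0 probes higher and 0 lower under all alternatives but those that left out a mouse, where the counts ranged from 0 to 1 in each direction (Adamts15 lower without wild-type replicate 4, Mmp8 higher without transgenic replicate 4). The number of member probes above the pool, 6, became 11 with a normexp offset of 0, 3 with normexp fitted on all spots, 11 with Agilent's processed signals and 10 with the authors' matrix. Of the 21 probes called against the pool, 14 to 21 were called under each alternative. The share of all tested probes above or below the pool was computed for the main setting alone. In the pool counts of the alternatives, a shift of the whole array therefore cannot be told apart from one of the members. Log2 fold changes of small size turned in sign: Timp1 to -0.10 and Adam29 to -0.17 with normexp fitted on all spots, and the Mmp2 difference to -0.023 with median-centring. Leaving out a mouse gave -0.042 to 0.25 for Mmp2, negative without wild-type replicate 4 or transgenic replicate 1, and -0.13 to 0.041 for Timp4. The mean log2 ratio of Adam30 to the pool turned to -0.013 with median-centring and to -0.028 with processed signals and with the authors' matrix. The cause of these changes was not tested. Replicate numbers did not pair the mice, as deviations from the group means correlated at 0.32, 0.25, -0.08 and -0.21 for numbers 1 to 4. With the replicate block, 0 members differed by genotype, and 5 probes were above and 14 below the pool. Mice of the same slide correlated at 0.32, 0.25, 0.30 and 0.08. With slide as a block, 0 members differed by genotype, 6 were above and 14 below the pool, and 19 of the 21 calls were shared, while over all probes 80 were higher and 41 lower by genotype, against 41 and 34 without the block. These all-probe counts ranged further with the background correction, from 10 and 23 with normexp fitted on all spots to 187 and 184 with processed signals. Dim probes limit the size of ratios, as for Mmp12.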
